A study of Homo sapiens with 12 samples.

Results

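The response shared by a pair of human endometrial cell lines was measured as the average effect of AG-205 against its solvent DMSO over all 12 RNA-seq libraries of the series, in 1 model in which the cell line was a block and the effect was taken as the same in both lines. HEC-1A is an epithelial line from an endometrial adenocarcinoma, and T-HESC is an endometrial stromal line immortalised with telomerase; each is a single established line. AG-205 is a small molecule sold as an inhibitor of PGRMC1, a haem-binding membrane protein of the membrane-associated progesterone receptor family. Cultures in serum-containing medium without phenol red received AG-205 at 15 µM, or the solvent, and were collected after 32 h. The labels give 3 libraries in each of the 4 groups of line and treatment, from 3 separate experiments.

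Cells sense their membrane cholesterol in the endoplasmic reticulum. When sterols there are low, the factor SREBP is carried by its escort SCAP to the Golgi, is cut, and enters the nucleus, where it raises transcription of the cholesterol synthesis enzymes, of uptake genes and of fatty acid enzymes, while INSIG proteins hold the complex back when sterols are plentiful. The description below leads with the genes outside the synthesis enzymes.

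The libraries held 7168542 to 15178276 counts. Levels are given in CPM, counts scaled to library size and TMM factor, except that marker sums are scaled to library size alone. As sums, defining markers matched the labels: 10 epithelial markers summed to 2144–3127 CPM in the HEC-1A libraries. In those of T-HESC they summed to 204–342 CPM, with CDH1 and ESRP1 at 3 counts or fewer. For 12 stromal markers the sums were 17074–35145 CPM in T-HESC and 52.0–68.1 CPM in HEC-1A. In T-HESC, AG-205 replicate 1 stood apart, with a score of 95.8 on the first principal component of that line against -40.3 to 2.41 in the other libraries. Leading counts are therefore given with and without it.

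Of 16132 genes tested with edgeR, 156 were higher with AG-205 (0.967%) and 9 were lower (0.0558%) at an adjusted p under 0.05 and a change of more than 1 on the log2 scale, here named called genes. Without T-HESC AG-205 replicate 1 the counts were 229 and 17. The count of higher genes was 103 without HEC-1A AG-205 replicate 2 and 100 and 98 without HEC-1A DMSO replicates 2 and 3, and that of lower genes was 3 to 5 without HEC-1A AG-205 replicate 2 or 3, any HEC-1A DMSO replicate or T-HESC DMSO replicate 1. With no fold limit 238 genes passed as higher (1.48%). Among the called genes were 19 of the 22 cholesterol synthesis enzymes, between 1.56 and 3.30 on the log2 scale with a median of 2.24. HMGCS1, which makes HMG-CoA, was the highest of them at 3.30 ± 0.26 (SE), and MVD, the mevalonate diphosphate decarboxylase, changed by 2.94 in HEC-1A and 2.84 in T-HESC. PMVK, AACS and LBR were the 3 not called, at 0.15, 0.33 and -0.01. The smallest adjusted p for a difference between lines among the called enzymes was 0.313.

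The other 137 genes called higher were less even. The estimates had the same sign in both lines for 117 of them, while 20 had the opposite sign or 0 in 1 line. In 81 every AG-205 library lay above every DMSO library in both lines, against 2.19% of all genes tested, in 44 this held in HEC-1A alone and in 12 in T-HESC alone. When each line was tested by itself, 2 of the 137 were called in both, 97 in HEC-1A only, 0 in T-HESC only and 38 in neither. HEC-1A by itself had 364 genes called higher of 14122 tested (2.58%) and T-HESC 11 of 13753 (0.08%), with a biological coefficient of variation of 10.1% and 33.6%. Another rule asked for the same sign in both lines. It took the larger of the 2 within-line unadjusted p values and adjusted it again over 12008 genes. At an adjusted p under 0.05 it left 10 genes higher, 9 of them enzymes and the other INSIG1. Below, this rule is worded as the weaker line having to pass.

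**Figure D1:**
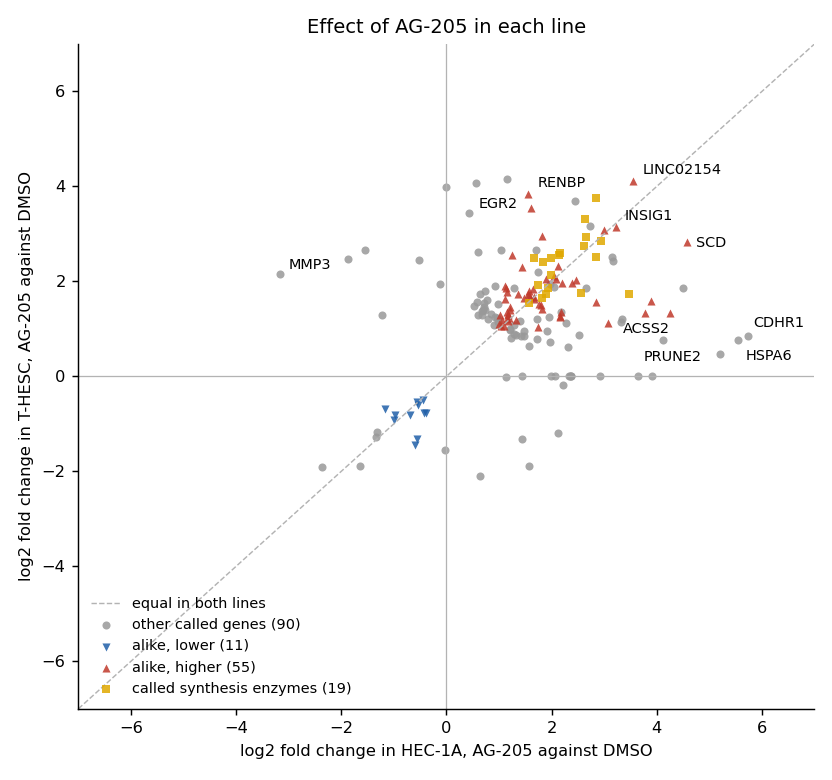
Log2 fold change of AG-205 against DMSO in HEC-1A (horizontal axis) and in T-HESC (vertical axis) for each gene called in the common effect or moving alike and lower, 1 point a gene, with a dashed line of equal change; an estimate of exactly 0 is a line with no counts of that gene. The 19 enzymes and the 55 genes moving alike and higher lie in the upper right, above 1 on both axes, and the 11 alike and lower in the lower left, while HSPA6, CDHR1 and PRUNE2 lie far to the right and MMP3 to the left of 0.

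Genes were taken to move alike and higher where they were called, were no synthesis enzyme, changed by more than 1 in each line, had every AG-205 library above every DMSO library in both lines, and did not differ between lines at an adjusted p under 0.05. There were 55, with a median common change of 1.66 (1.05 to 3.90) beside a median of 0.03 over all genes tested. The estimates of the lines lay within 0.5 of each other for 35 genes and over 1 apart for 10, and the change was larger in T-HESC for 33 and in HEC-1A for 22. They were chosen on these values, so their direction and evenness are a description. Without T-HESC AG-205 replicate 1 the same criteria gave 71 genes, of which 48 were shared.

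The promoters of 5 of the first-ranked members present in the RefSeq table (GRCh38.p14) are shown because all carry the CCAAT box of factor NF-Y, which works beside SREBP at many sterol genes. Each is the 250 bases before the start, 5′ to 3′ on the strand of the gene, with CCAAT or its complement ATTGG in capitals; INSIG1 is at chr7:155297628-155297877 (plus strand), SCD at chr10:100346983-100347232 (plus strand), SAT1 at chrX:23782923-23783172 (plus strand), RUSC1-AS1 at chr1:155324177-155324426 (minus strand) and STARD4 at chr5:111512536-111512785 (minus strand).
INSIG1: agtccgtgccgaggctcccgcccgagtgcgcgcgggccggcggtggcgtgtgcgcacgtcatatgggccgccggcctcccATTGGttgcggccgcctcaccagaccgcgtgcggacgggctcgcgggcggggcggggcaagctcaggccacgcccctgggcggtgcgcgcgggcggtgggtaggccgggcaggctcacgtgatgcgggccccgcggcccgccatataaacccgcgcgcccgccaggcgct
SCD: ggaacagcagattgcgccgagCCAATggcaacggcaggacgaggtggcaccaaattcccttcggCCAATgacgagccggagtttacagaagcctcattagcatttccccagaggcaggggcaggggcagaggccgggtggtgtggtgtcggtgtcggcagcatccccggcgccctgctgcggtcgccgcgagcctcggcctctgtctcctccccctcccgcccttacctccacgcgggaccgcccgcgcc
SAT1: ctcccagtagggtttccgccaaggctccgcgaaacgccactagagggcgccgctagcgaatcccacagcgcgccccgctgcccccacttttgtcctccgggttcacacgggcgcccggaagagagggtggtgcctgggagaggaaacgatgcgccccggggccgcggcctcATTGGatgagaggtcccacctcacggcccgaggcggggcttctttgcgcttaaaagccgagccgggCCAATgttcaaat
RUSC1-AS1: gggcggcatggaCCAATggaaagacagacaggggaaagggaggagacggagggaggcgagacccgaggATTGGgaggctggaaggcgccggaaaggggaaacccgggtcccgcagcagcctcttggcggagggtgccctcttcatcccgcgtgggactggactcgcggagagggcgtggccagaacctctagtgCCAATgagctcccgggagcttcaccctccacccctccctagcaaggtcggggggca
STARD4: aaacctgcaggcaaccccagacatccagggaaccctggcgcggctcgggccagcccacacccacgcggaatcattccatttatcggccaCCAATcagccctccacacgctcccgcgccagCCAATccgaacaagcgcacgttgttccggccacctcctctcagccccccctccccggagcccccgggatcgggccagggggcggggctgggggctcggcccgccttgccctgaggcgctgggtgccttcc
INSIG1 held 1 CCAAT box, SCD, SAT1 and STARD4 held 2 each, and RUSC1-AS1 held 3, while the window of TM4SF19, the other of the 6 looked at, held 0. Over windows of 300 bases that run to 50 bases after the start, CCAAT on either strand was found for 22 of the 37 members with a window (59.5%), for 13 of the 14 called enzymes with one (92.9%), for 42.9% of the 11519 genes with one among all those tested outside the enzyme list, the members included, and in 34.6% of all 35116 windows. The letters TCACNCCAC, a core of the sterol regulatory element, were found for 1 of the 37, ALDOC, for 0 of the 14 enzymes and for 1.45% of those 11519. These are matches of letters only.

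INSIG1, the sterol-dependent anchor of SCAP, changed by nearly the same amount in both lines. Its level was 34.5, 32.6 and 35.8 CPM in the HEC-1A DMSO libraries and 304, 369 and 288 with AG-205, and 122, 147 and 85.6 in T-HESC against 1059, 1191 and 896. The groups were far from overlapping in either line, and the common change was 3.19 ± 0.15 (SE, adjusted p = 7.62e-08), with 3.22 in HEC-1A and 3.15 in T-HESC. Of 12 members of the sterol sensing list 2 were called higher and 0 lower (median -0.04), by DESeq2 3 and 0, and without T-HESC AG-205 replicate 1 4 and 0. At an unadjusted p under 0.05, 4 were higher and 1 was lower, where 2007 of all 16132 genes tested passed in either direction. The other called member was ERG28, a scaffold for sterol demethylation, at 1.63. SREBF2, which encodes SREBP-2, was at 1.04 (adjusted p = 0.0509) and RNF145, a sterol-responsive ubiquitin ligase, was at 1.00 and rose in every library of both lines, while SCAP was at -0.18 and SREBF1 at -0.10.

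Uptake and transport of sterols had 5 of 16 members called higher. STARD4, a cytosolic sterol carrier, rose from 11.6–13.6 to 54.7–72.3 CPM in HEC-1A and from 14.6–20.9 to 47.4–89.0 CPM in T-HESC, by 2.18 ± 0.17 (SE). TMEM97, an endoplasmic reticulum protein known as the sigma-2 receptor, changed by 1.64 (1.57 in HEC-1A, 1.71 in T-HESC). NPC1L1, a sterol importer of the gut, was called at 3.75 on HEC-1A alone, since it had 0 to 2 counts in every T-HESC library. NPC2, the soluble cholesterol carrier of the lysosome, moved nearly equally, by 0.83 and 0.80, but stayed under the fold limit (adjusted p = 0.0075), and NPC1 was at 1.49 (adjusted p = 0.104).

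Fatty acid synthesis followed, with 6 of 18 members called higher, 16 of 18 positive and a median of 0.81. Over all 16132 genes tested, 8926 were positive. SCD, which puts the first double bond into saturated acyl chains, was at 46.4, 55.5 and 55.3 CPM in HEC-1A with DMSO and at 1229, 1450 and 1049 with AG-205. In T-HESC it was at 172, 169 and 200 against 684, 1684 and 1492. Neither line overlapped, and the common change of 3.70 ± 0.34 (SE, adjusted p = 3.33e-05) joined 4.57 in HEC-1A to 2.83 in T-HESC (adjusted p of the difference 0.177). ACSS2, which makes acetyl-CoA from acetate, changed by 3.77 and 1.33, the pair of estimates nearest to a called difference among the members moving alike (adjusted p = 0.0543).

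FASN, the fatty acid synthase, was called at 1.96 (1.97 in HEC-1A and 1.94 in T-HESC) but did not meet the rule. Its T-HESC levels were 297, 236 and 319 CPM with DMSO and 246, 1378 and 1654 with AG-205, so that the library that stood apart lay among the controls. ELOVL6, an elongase, changed by 1.77 with 1 T-HESC AG-205 library, at 44.6 CPM, under the highest control at 46.1. The desaturases FADS1 (1.10) and FADS2 (1.20) rose in every library of both lines and more in T-HESC (1.47 and 1.74) than in HEC-1A (0.72 and 0.64), and each lost its call in 10 of the 12 fits that left out 1 library. SLC25A1, the mitochondrial citrate carrier, and ELOVL5 passed the test under the fold limit, at 0.84 and 0.78, with their libraries apart in both lines.

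**Figure D2:**
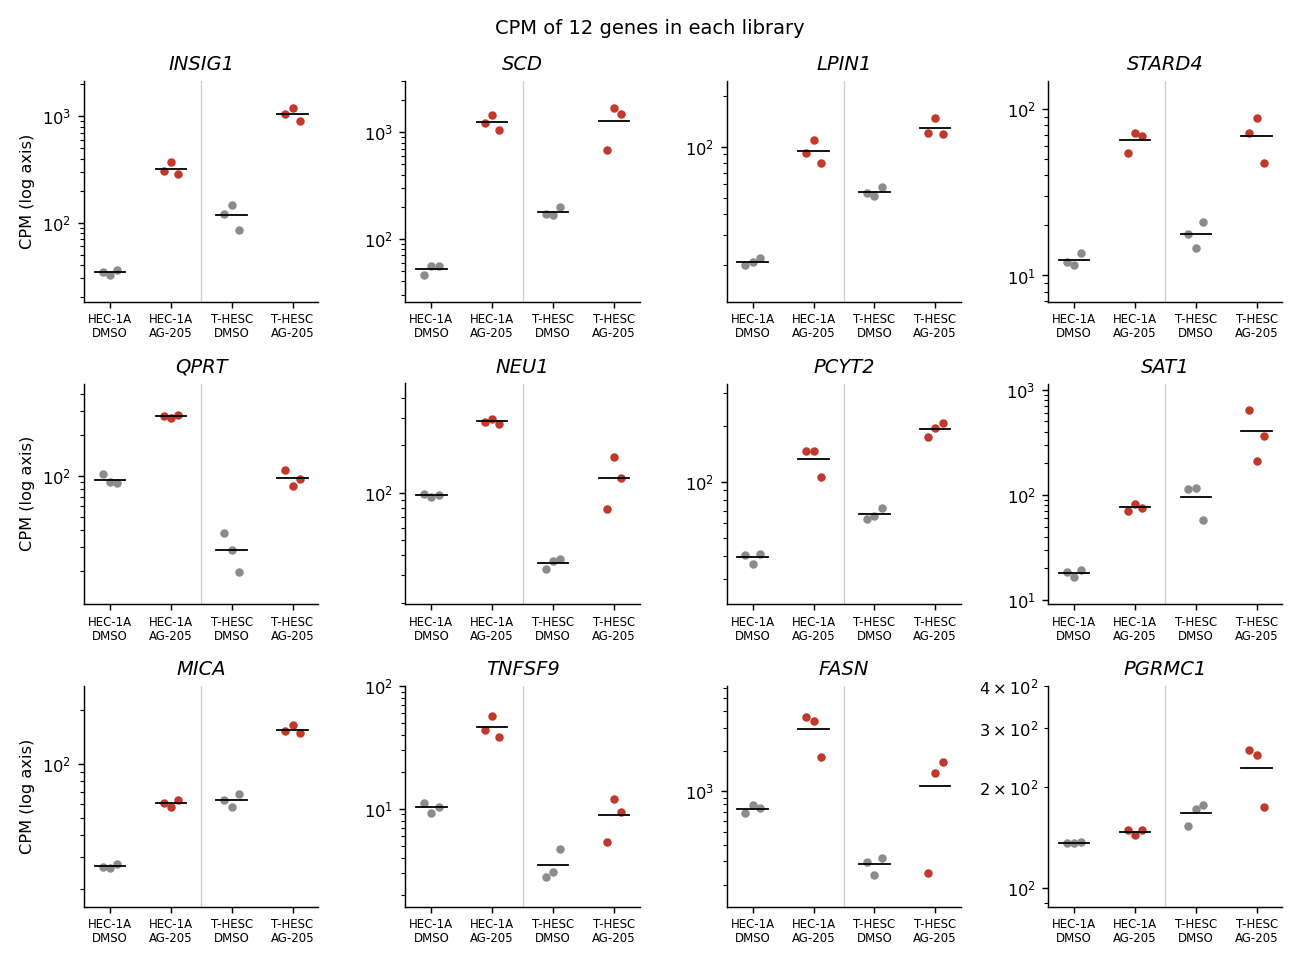
CPM on a log axis of 12 genes in each of the 12 libraries, grey for DMSO and red for AG-205, with the mean of each group as a line. For all but FASN and PGRMC1 the red points lie above the grey ones within each line; in T-HESC, FASN at 246 CPM and PGRMC1 at 175 CPM have an AG-205 library among the controls.

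Among phospholipid and neutral lipid genes 3 of 21 were called higher, and the median was 0.12. PCYT2, the rate-limiting enzyme of phosphatidylethanolamine synthesis from ethanolamine, was at 40.4, 36.0 and 41.1 CPM in HEC-1A with DMSO and at 146, 146 and 106 with AG-205, and in T-HESC at 63.3, 65.3 and 71.9 against 174, 195 and 206. The change was 1.64 ± 0.12 (SE, adjusted p = 2.79e-06). LPIN1, a phosphatidate phosphatase, changed by 1.70 and PNPLA3, a lipid droplet enzyme, by 1.63, with 0.740–1.99 CPM in the control libraries of both lines and a call lost in 6 of the 12 fits without 1 library. The acyl-CoA ligase ACSL1 was not called (adjusted p = 0.122), its estimates being 2.27 (HEC-1A) and 0.25 (T-HESC).

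Several of the 55 genes belong to none of these lipid lists. QPRT, the enzyme that leads from quinolinate into NAD, was at 103, 90.0 and 88.0 CPM in HEC-1A with DMSO and at 274, 268 and 279 with AG-205. In T-HESC it was at 38.0, 28.5 and 19.6 against 110, 83.9 and 94.4. The groups did not overlap, and the change was 1.64 ± 0.15 (SE, adjusted p = 2.71e-05). It was the only one of 10 tested NAD synthesis genes to be called, as NAMPT, of the salvage route, was at 0.40 (edgeR, adjusted p = 0.148). At an unadjusted p under 0.05, 4 of the 10 were higher and 0 lower, beside 2007 of all 16132 genes tested in either direction.

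NEU1, the lysosomal sialidase, rose from 93.9–98.1 to 273–296 CPM in HEC-1A and from 32.8–37.6 to 78.7–169 CPM in T-HESC, by 1.68 ± 0.16 (SE, adjusted p = 3.69e-05). Of 20 lysosomal genes 2 were called, NEU1 and GPNMB, a glycoprotein of lysosome-related organelles (1.32), while 18 of 20 estimates were positive with a median of 0.35. Over all 16132 genes tested, 8926 estimates were positive. CTSL, LAMP2 and ATP6V0D1 had their AG-205 libraries above the controls in both lines at 0.46, 0.33 and 0.39, without passing the test.

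SAT1, which acetylates spermidine and spermine, was at 18.5, 16.5 and 19.2 CPM in HEC-1A with DMSO and at 71.1, 82.5 and 75.3 with AG-205, and in T-HESC at 115, 117 and 57.8 against 638, 209 and 362. The libraries were apart in both lines and the estimates nearly equal, at 2.08 and 2.06, with a common change of 2.07 (edgeR, adjusted p = 0.000347). T-HESC AG-205 replicate 1 was the highest library, and without it the common change was 1.84. HSD17B14, a 17-beta-hydroxysteroid dehydrogenase, was the only called member of 18 steroid conversion genes, at 1.95 (1.43 in HEC-1A, 2.31 in T-HESC). HSD17B12, named after its values were seen, passed the test under the fold limit, at 0.79 (edgeR, adjusted p = 0.0054), with libraries apart in both lines. At an unadjusted p under 0.05, 5 of the 18 were higher and 0 lower, beside 2007 of all 16132 genes tested in either direction. APOC1, an apolipoprotein, changed by 1.71 and RENBP, an N-acetylglucosamine epimerase, by 2.40, the latter from 0 to 3 counts in the T-HESC controls. PTPRR, a receptor-type tyrosine phosphatase, had equal estimates of 1.66 and 1.66 from levels between 0.497 and 1.60 CPM in the controls, and lost its call in 7 of the 12 fits without 1 library. TRIM54, a RING finger protein of muscle, was counted among the alike genes on 0 against 1 to 2 counts in T-HESC, too few for a fold change there, and lost its call in 11 of the 12 fits. TM4SF19, a tetraspan membrane protein, changed by 2.13 with 2 to 5 counts in the T-HESC controls against 9 to 14.

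Long non-coding and pseudogene transcripts were also among the members. LINC02154, a long non-coding RNA at chrX:13266041-13303452 (GRCh38, minus strand), had 2, 1 and 0 counts in the HEC-1A DMSO libraries and 18, 17 and 6 with AG-205, and 1, 2 and 2 counts in T-HESC against 24, 44 and 28. Its fitted change of 3.90 is the largest of the 55 and depends on the handling of the low controls. RUSC1-AS1 (2.07 ± 0.19, SE) shares 19.7% of its exon length with FDPS, a synthesis enzyme on the other strand that changed by 2.06. The strand setting of the counting was not given in the sources used here. Reads in the shared stretch therefore cannot be told apart, and the value of RUSC1-AS1 is uncertain. HSD17B7P2 (2.25) is a pseudogene of the enzyme HSD17B7 (2.37) and its value is uncertain for the same kind of reason. SNAI3-AS1 changed by 2.20, ZMIZ1-AS1 by 2.66, the unnamed long non-coding locus ENSG00000227706 (chr6:67878316-67889339) by 2.17 and ENSG00000217801, annotated as a transcribed pseudogene (chr1:1063079-1069355), by 1.64. In HEC-1A, ZMIZ1-AS1 had only 4, 6 and 5 counts with AG-205 against 1, 1 and 2. In T-HESC, ENSG00000227706 had only 8, 10 and 9 counts with AG-205 against 3, 1 and 1.

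Further members, picked here after their values were seen, have roles outside lipid metabolism. MICA, a stress-induced ligand of the receptor NKG2D of natural killer cells, was at 26.5, 26.2 and 27.5 CPM in HEC-1A with DMSO and at 60.3, 57.6 and 63.2 with AG-205, and in T-HESC at 62.6, 57.7 and 68.2 against 152, 166 and 149. Replicates were tight, with a change of 1.24 ± 0.09 (SE). TNFSF9, the ligand of the T cell receptor 4-1BB, changed by 2.17 in HEC-1A and 1.36 in T-HESC. BHLHE40, a transcriptional repressor of the clock circuit, changed by 1.25 and 2.56, the Notch ligand JAG2 by 1.11 and 1.90, and the lysosomal hexose transporter SLC2A6 by 3.08 and 1.13. MMAB, which makes adenosylcobalamin, changed by 1.55, the acyl-CoA binding protein DBI by 1.23, the retinol dehydrogenase RDH11 by 1.31, the aldolase ALDOC by 1.71 and the long non-coding RNA UCA1 by 1.31, the last from 0.0753 to 0.414 CPM in the T-HESC controls.

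Stress and early response lists held few called genes. In the AP-1 and early response list 3 of 17 were called higher, 15 were positive and the median was 0.40. At an unadjusted p under 0.05, 10 of the 17 were higher and 0 lower. KLF6, a zinc finger factor, was at 1.17 in both lines, on T-HESC AG-205 levels of 775, 346 and 557 CPM against 238, 252 and 254. The highest of these was T-HESC AG-205 replicate 1, and without it the common change was 1.03. FOSB, an AP-1 subunit, changed by 3.89 and 1.59 on T-HESC AG-205 levels of 7.04, 6.70 and 26.7 CPM against 5.87, 5.97 and 1.40, and lost its call in 10 of the 12 fits without 1 library. EGR2 was called on T-HESC (3.44), with 1 to 5 counts in all HEC-1A libraries. DDIT3 (1.05), which encodes CHOP, was the 1 called member of 15 integrated stress response genes, HMOX1 (1.33), the haem oxygenase, of 15 NRF2 target genes, and GDF15 (1.60), a secreted stress cytokine, of 15 p53-type arrest genes. DDIT3 lost its call in 2 of the 12 fits without 1 library, among them the one without T-HESC AG-205 replicate 1, at 0.93. The p53-type count was 2 by DESeq2 and 3 without T-HESC AG-205 replicate 1. GDF15 lost its call in 7 of the 12 fits. The integrated stress response, NRF2 and p53-type lists had 11, 11 and 12 positive members and medians of 0.20, 0.15 and 0.48. At an unadjusted p under 0.05, 5, 4 and 7 members were higher and 0 lower. Named after their values were seen, PPP1R15A was at 0.95 (edgeR, adjusted p = 0.0082) and CDKN1A at 1.93 (0.0715). CDKN1A changed by 3.87 in HEC-1A and 0.63 in T-HESC (adjusted p of the difference 0.0055). ATF4 was at 0.12, NQO1 at -0.11 and MDM2 at 0.18. Of 15 endoplasmic reticulum chaperone and unfolded protein genes 0 were called by edgeR or DESeq2, with 5 higher at an unadjusted p under 0.05. Of 11 iron genes 0 were called by either, with 1 higher at that unadjusted p. Over all 16132 genes tested, 8926 were positive and 2007 passed that unadjusted p in either direction.

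**Figure D3:**
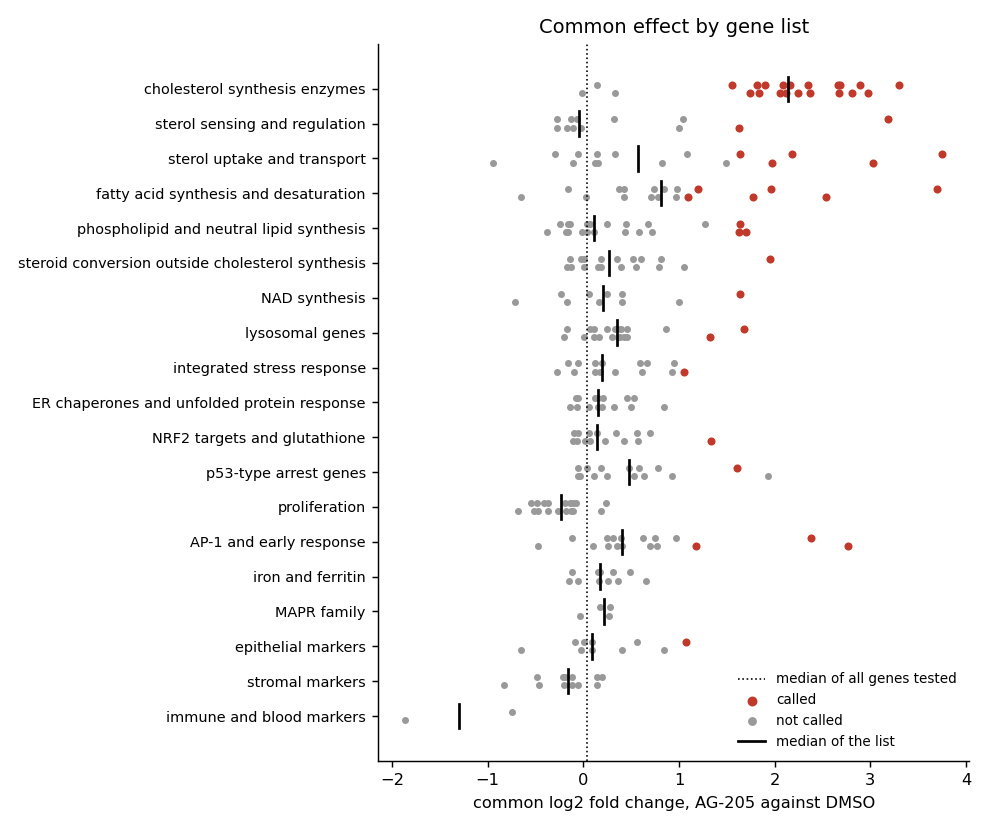
Common log2 fold change of each tested member of the gene lists, red where called and grey where not, with the median of each list as a bar and the median of all genes tested as a dotted line. The enzymes have a median of 2.14 and run from -0.01 to 3.30. Fatty acid synthesis has a median of 0.81, and proliferation is the list with most members left of 0, at a median of -0.23.

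The 4 membrane-associated progesterone receptor genes were not called by edgeR or DESeq2. At an unadjusted p under 0.05 1 of them passed, beside 2007 of all 16132 genes tested. PGRMC1 itself was at 136, 136 and 137 CPM in HEC-1A with DMSO and at 149, 144 and 149 with AG-205, and in T-HESC at 153, 172 and 177 against 259, 249 and 175. Its common change was 0.28 ± 0.12 (SE, adjusted p = 0.357), and PGRMC2, NENF and CYB5D2 were at -0.03, 0.17 and 0.26.

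Genes that moved alike and lower were few and changed less. With no fold limit, 19 genes were lower at an adjusted p under 0.05 (0.118%), and 11 of them were negative in both lines with every AG-205 library below every DMSO library, against 1.07% of all genes tested, and with no difference called between lines. Their changes ran from -1.04 to -0.47 with a median of -0.75. The count rests on single libraries: it was 89 without T-HESC AG-205 replicate 1, 51 without T-HESC AG-205 replicate 3 and 3 without HEC-1A DMSO replicate 1, 2 or 3, while it was 6, 4 and 7 without HEC-1A AG-205 replicates 1, 2 and 3 and 5 without T-HESC DMSO replicate 2. In the first of these fits all 11 remained among the 89. In bulk RNA, fewer cells of a type and less RNA per cell cannot be told apart.

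PARP1, which marks DNA breaks with poly(ADP-ribose), was at 373, 373 and 367 CPM in HEC-1A with DMSO and at 293, 264 and 261 with AG-205, and in T-HESC at 157, 180 and 203 against 121, 133 and 128. The common change was -0.47 ± 0.10 (SE, adjusted p = 0.0291). UNG, which removes uracil from DNA, was at -0.56 in HEC-1A and -0.54 in T-HESC. AJUBA, a LIM scaffold of cell junctions, fell by 0.57 on the log2 scale, from 305–314 to 203–226 CPM in HEC-1A and from 155–192 to 92.2–127 CPM in T-HESC. ARHGAP6, a GTPase-activating protein, was at -0.96, the actin-associated ZNF185 at -0.91, the centromere protein CENPV at -0.60, the polarity scaffold LIN7A at -0.75, the ephrin receptor EPHA4 at -1.04 and the protein kinase PKN3, named after its values were seen, at -0.58. The loci ENSG00000250899 and ENSG00000216775 were at -0.97 and -0.96, and the exons of the latter lie wholly within another gene of the same strand. EPHA4 was the 1 gene that was both called and alike, but its call was lost in 10 of the 12 fits without 1 library, with RLE size factors and with the replicate block. LIN7A no longer passed the test in 10 of those 12 fits, CENPV in 9, PARP1 in 8, UNG in 6, ZNF185 in 5 and AJUBA in 4. PKN3 reached an adjusted p of up to 0.118 in them (edgeR).

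**Figure D4:**
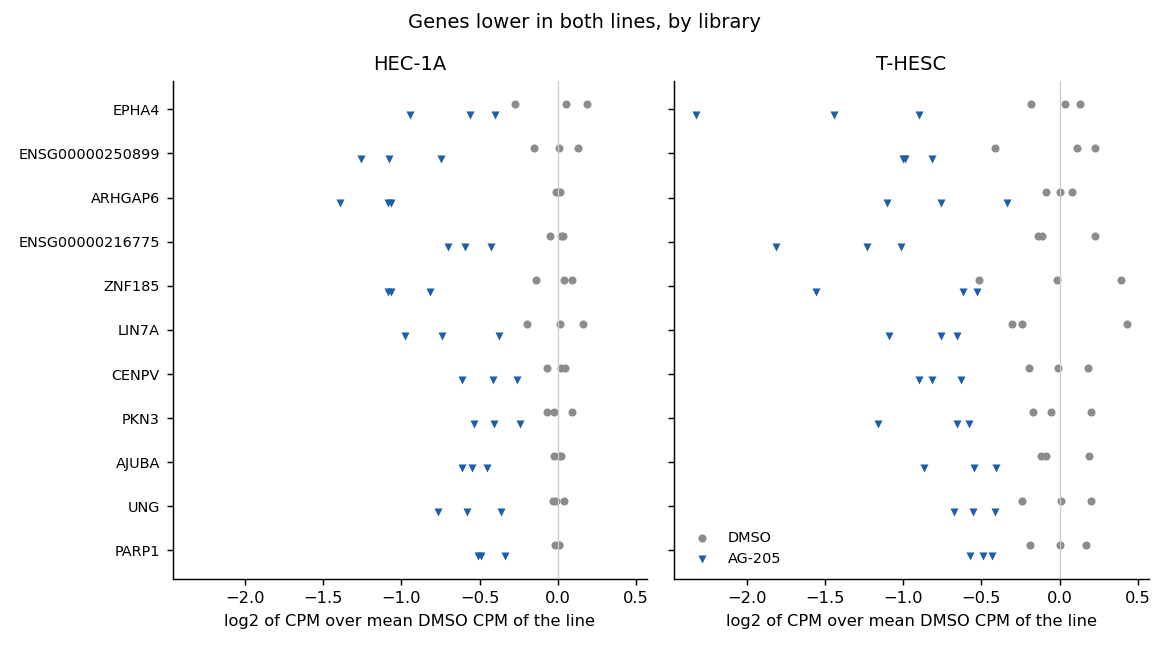
Log2 of CPM over the mean DMSO CPM of the same line in each library, grey circles for DMSO and blue triangles for AG-205, for the 11 genes lower in both lines. Every triangle lies left of every circle of its gene and line, and EPHA4 reaches the lowest values in T-HESC.

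The other genes called lower came mainly from 1 line and were named after their values were seen. ACTL8 and TM4SF4, at -1.65 and -2.36, had 0 or 1 count in every T-HESC library, whereas GFRA1 (-1.18), a receptor subunit for GDNF, had 0 to 2 counts in every HEC-1A library. VSIR, which encodes the immune checkpoint VISTA, was at -1.33 and -1.27, but in T-HESC 1 AG-205 library, at 31.6 CPM, was level with the lowest control. Of 18 proliferation genes 0 were called by edgeR or DESeq2, 16 were negative with a median of -0.23, and 6 were lower at an unadjusted p under 0.05. Over all 16132 genes tested, 7206 were negative and 2007 passed that p in either direction. TYMS, MCM3, MCM5 and E2F1 had AG-205 libraries below the controls in both lines, at -0.54, -0.48, -0.52 and -0.36.

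KRT19, a keratin, was the only called gene among 10 epithelial markers, at 1.09 and 1.06. Its DMSO levels were 104, 96.7 and 101 CPM in HEC-1A and 110, 106 and 103 CPM in T-HESC, the stromal line. The summed epithelial markers of HEC-1A moved with treatment, from 2144–2331 CPM with DMSO to 3108–3127 CPM with AG-205, and the stromal markers of T-HESC lay at 28147–35145 against 17074–29962 CPM, ranges that overlap; 0 of 12 stromal markers were called by edgeR or DESeq2 and 1 was lower at an unadjusted p under 0.05. Over all 16132 genes tested, 2007 passed that p in either direction. The part of these markers in the common effect was not tested. Immune and endothelial markers summed to at most 6.65 and 0.957 CPM in any library.

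A common effect fitted to 2 lines can also hold genes of 1 line. It is not the plain mean of the 2 estimates: CDHR1 was at 5.39 in common, with 5.74 in HEC-1A and 0.86 in T-HESC. The 5 called genes outside the enzymes with the largest gap between the estimates were CDHR1, HSPA6, PRUNE2, SLC16A6 and MMP3. CDHR1, a cadherin of photoreceptors, had 7, 1 and 8 counts in HEC-1A with DMSO against 354, 372 and 184, and 0 to 3 counts throughout T-HESC. HSPA6, an inducible heat shock protein, was at 0.740, 0.558 and 0.449 CPM in HEC-1A against 28.0, 41.2 and 14.0, and in T-HESC at 0.301, 0.663 and 0.399 against 1.01, 0.978 and 0.339. Its difference between lines passed the test (adjusted p = 0.0435), as it did for 28 genes in all (0.174%). PRUNE2 changed by 5.20 in HEC-1A and 0.48 in T-HESC (adjusted p of the difference 0.212), while SLC16A6 and MMP3 were at 0 or 1 count in every HEC-1A library.

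**Figure D5:**
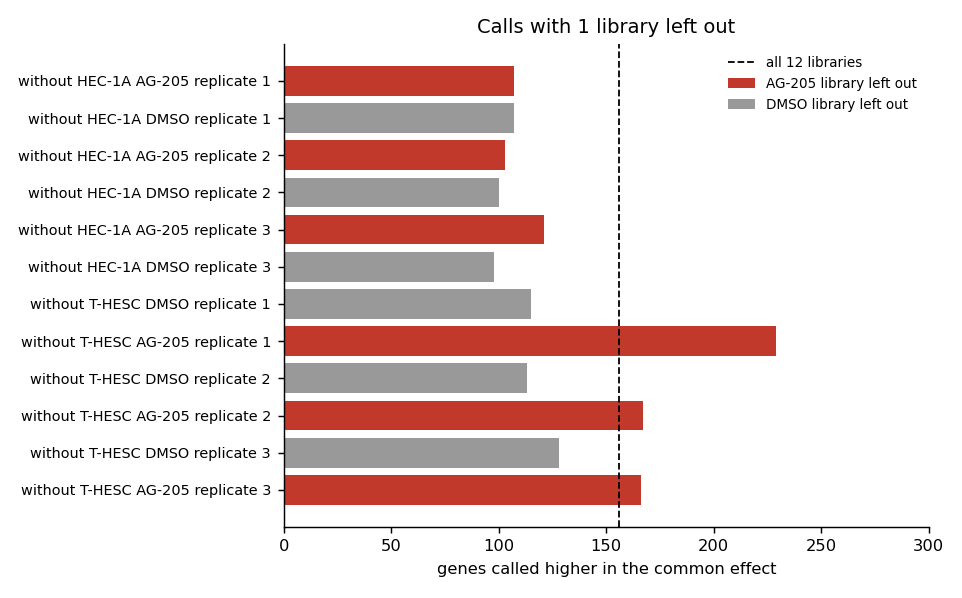
Number of genes called higher in the common effect when 1 library is left out, red for an AG-205 library and grey for a DMSO library, with a dashed line at the 156 of all 12 libraries. Leaving out T-HESC AG-205 replicate 1 gives the most calls, 229, and leaving out HEC-1A DMSO replicate 3 the fewest, 98.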

How the data were processed

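Libraries were made from poly(A) RNA and read on an Illumina HiSeq. For the authors' files, Trimmomatic 0.38 removed adapters, HISAT2 2.1.0 did the alignment (GRCh38) and featureCounts of Subread 2.0.0 the counting per Ensembl gene; they deposited raw counts of 58735 genes, whose strand and multimapping settings are not given in the sources used here. From these counts, edgeR 4.0.16 (R 4.3.3) was run with TMM scaling, its filter on low counts over the 4 groups and a quasi-likelihood test of line plus treatment on all 12 libraries, with Benjamini-Hochberg adjustment over 16132 genes. A model with 1 term a group gave each line's own estimate and the test of their difference. Replicates were separate culture experiments, and same-numbered libraries did not deviate together. CPM values other than the marker sums are scaled over all libraries and compared within a line. SE is the estimate over the root of its F.

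Named genes were the 25 alike higher and 10 alike lower with the largest change in the weaker line, called members of the gene lists, the 5 called genes outside the enzymes with the largest gap between lines, and the 4 progesterone receptor family genes; others are marked. Of the 25, 1 unnamed locus was left out of the text, and results for some genes are not reported here. Members and lists were chosen with earlier results of these data known. Positions and overlaps are from GENCODE on GRCh38, and RefSeq promoters matched 37 of the 55 alike higher and 9 of the 11 alike lower genes. DESeq2 1.42.0, limma 3.58.1 quality weights, other scalings, filters and thresholds, a replicate block and leaving out each library were tried. The fit of line plus treatment and the model with 1 term a group were first run on simulated counts with known changes. The other steps were not.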

Additional observations from a re-analysis of the deposited data

Results flagged for a closer look

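HSPA6 differed between lines: its change in T-HESC minus that in HEC-1A was -4.79 on the log2 scale (edgeR, adjusted p = 0.0435), with 117 to 558 counts in HEC-1A with AG-205 against 5 to 9 with DMSO, and 4 to 13 against 4 to 8 in T-HESC. MMP3, a secreted matrix protease, moved in opposite directions in the libraries, with T-HESC minus HEC-1A at 5.32; the difference did not pass the test (adjusted p = 0.859), since every HEC-1A library held 0 or 1 count, and its T-HESC levels were 38.0, 75.9 and 20.9 CPM with DMSO against 309, 115 and 174 with AG-205.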

How the results depend on the processing

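Genes called higher numbered 314 with no filter on low counts, 238 with no fold limit, 90 at an adjusted p under 0.01, 385 with library quality weights and 10 when the weaker line had to pass. Those called lower numbered 23 with DESeq2, 37 with no filter, 19 with no fold limit, 3 at an adjusted p under 0.01, 40 with quality weights, 5 for the mean of both lines' own effects and 0 when the weaker line had to pass. Genes alike and higher numbered 150 with no fold limit and 1 when the weaker line had to pass, and those alike and lower 108 with DESeq2, 18 with upper-quartile scaling, 25 with no filter, 2 at an adjusted p under 0.01, 116 with quality weights and 0 when the weaker line had to pass (edgeR; 250 of 12008 genes had an unadjusted p under 0.05 in both lines). With line by replicate number as a block the 4 counts were 90, 4, 41 and 2; the numbers are not known to pair libraries. Leaving out 1 library gave 98 to 229 higher, 3 to 17 lower, 42 to 71 alike higher and 3 to 89 alike lower. The causes were not tested. The log2 change of MMP3 turned to -0.51 for the mean of both lines' own effects. Of the named genes called, 57 lost the call when the weaker line had to pass, 27 with the block and 25 at an adjusted p under 0.01; without 1 library 2 to 22 did. Enzymes called higher numbered 18 or 19 in every alternative but the one on the weaker line, with 9. Low counts in 1 line or in the controls limit, among others, LINC02154, TRIM54, NPC1L1, ZMIZ1-AS1 and ENSG00000227706.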
